A study of Mus musculus with 2 samples.

Results

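Clustered histone genes are the protein-coding genes of the Hist1, Hist2, Hist3 and Hist4 loci, and they were taken as all rows of protein-coding type whose symbol begins with Hist1h, Hist2h, Hist3h or Hist4h. This gave 68 genes of 46511 rows, 21933 of them protein-coding: 6 H1, 19 H2a, 18 H2b, 12 H3 and 13 H4 genes. They were measured in 2 RNA libraries of effector regulatory T cells, 1 from Nrn1+/- and 1 from Nrn1-/- mice, both C57BL/6 and both carrying Foxp3DTRgfp, a Foxp3 allele that marks regulatory T cells with green fluorescent protein and a toxin receptor. Cells of both genotypes were sorted as CD4+, CD25+, Cd62L low, CD44 high and Foxp3gfp+. The control thus carries 1 disrupted copy of Nrn1, the gene of the surface protein neuritin, although its title calls it WT. The sources used here do not give age, sex or how many mice a library came from. With 1 library per genotype, the spread between animals is unknown and nothing was tested. Paired values below give the Nrn1+/- library first and the Nrn1-/- library second.

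Histones are the proteins around which DNA is wound. H2A, H2B, H3 and H4 form the core of the nucleosome, and H1 binds the DNA that links nucleosomes. The clustered genes are the replication-dependent ones: most are read out in S phase, when new DNA has to be packed, and their messenger RNA normally ends in a short stem-loop bound by the protein SLBP instead of a poly(A) tail. Some of them can also give tailed transcripts from a poly(A) signal further downstream. Both libraries here were made from RNA captured on oligo d(T), which holds on to tailed RNA. The values therefore describe what this capture retained of the histone transcripts, and how large a part of all histone RNA that was is not known.

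The stem-loop is the feature that sets these genes apart from other messenger RNAs, so examples are shown first, as DNA letters of the sense strand from 5′ to 3′ (GENCODE M21 transcripts, GRCm38), with the 16 bases of stem and loop in capitals. Which genes are shown was decided after their values were seen: the first 6 were among the higher genes in the Nrn1-/- library, and the last 3 were at equal or lower level there.
Hist1h2ap: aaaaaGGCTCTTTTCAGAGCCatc
Hist1h2bj: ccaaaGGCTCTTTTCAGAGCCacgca
Hist1h2bk: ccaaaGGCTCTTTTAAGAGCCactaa
Hist1h3c: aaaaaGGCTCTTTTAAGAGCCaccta
Hist1h4b: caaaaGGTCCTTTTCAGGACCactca
Hist1h4i: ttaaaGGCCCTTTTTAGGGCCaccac
Hist1h1c: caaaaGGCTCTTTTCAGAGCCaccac
Hist3h2a: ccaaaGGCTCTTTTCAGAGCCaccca
Hist3h2ba: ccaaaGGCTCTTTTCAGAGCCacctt
In this order they lie at chr13:21833026-21833049 (minus), chr13:22043633-22043658 (plus), chr13:22036295-22036320 (plus), chr13:23745042-23745067 (minus), chr13:23757361-23757386 (plus), chr13:22040961-22040986 (minus), chr13:23739507-23739532 (plus), chr11:58955167-58955192 (plus) and chr11:58949344-58949369 (plus), all in the 3′ UTR. A stem of 6 bases beginning with GG, a loop of 4 bases beginning with TTT and an exactly matching second arm were found after the stop codon of 44 members. The letters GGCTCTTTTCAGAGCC occurred in 26 of these and in no H4 gene, whereas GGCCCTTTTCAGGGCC occurred in 7 genes, all of them H4. Genes with the same 16 bases stood on both sides: Hist1h2ap, the highest member, and Hist3h2a, which was lower in the Nrn1-/- library, share all of them.

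Clustered histone genes were higher in the Nrn1-/- library for most members. The unit is FPKM, the number of fragments per kilobase of transcript relative to the size of the library. The 68 genes summed to 92.5 FPKM in Nrn1+/- and 210.5 FPKM in Nrn1-/- cells, 2.28-fold higher. Of the 68, 10 were listed at 0 FPKM in both libraries and 4 at 0 in the Nrn1+/- library alone. Among the 58 above 0 in either library, 48 were higher and 10 lower in the Nrn1-/- library, where 51.1% of all 16208 protein-coding genes above 0 were higher and 48.9% lower. Differences were also put on a log2 scale after adding 1 FPKM to each value, which understates those of low genes. On that scale 25 of the 58 were at least 1.5-fold higher, beside 4.81% of protein-coding genes, and 8 at least 2-fold higher, beside 0.821%. One gene, Hist3h2a, was at least 1.5-fold lower, beside 2.56%, and none at least 2-fold lower, beside 0.173%. The median log2 ratio was 0.43 over the 58 members and 0.0031 over protein-coding genes above 0. A difference in the number of cells of a kind, such as dividing cells, and a difference in RNA per cell cannot be told apart in these bulk libraries.

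**Figure D1:**
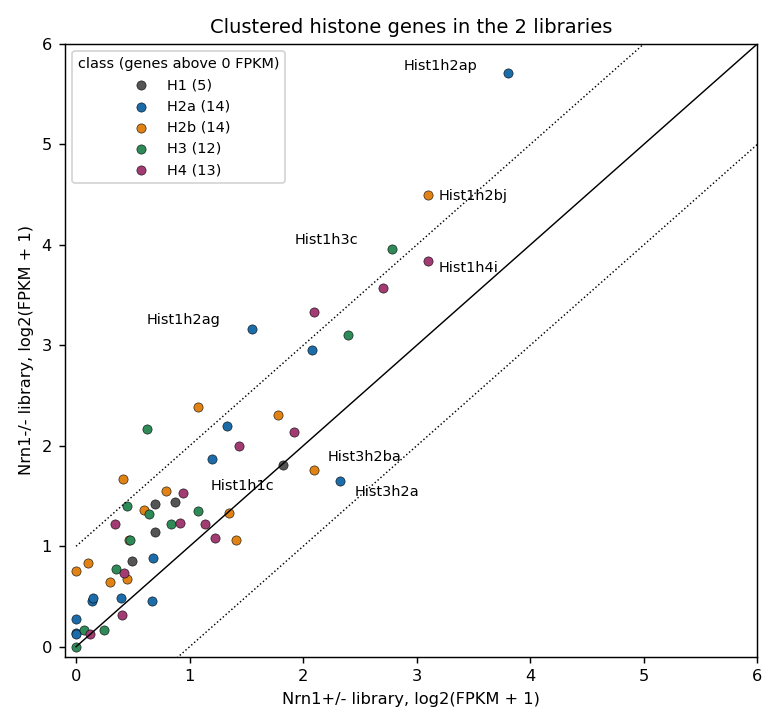
Level of the 58 clustered histone genes above 0 FPKM in the Nrn1+/- library (x axis) and the Nrn1-/- library (y axis), both as log2(FPKM + 1), with 1 point per gene coloured by histone class. The solid line marks equal levels and the dotted lines 2-fold differences on this scale, and 48 of the points lie above the solid line.

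Most members were low, and in each range of mean level more were higher than lower. Directions are those of the listed values. For many members of either direction, and for most of those whose counting error could be computed, that error alone covers equality. Of the 25 members above 0 with a mean under 1 FPKM, 21 were higher and 4 lower. Of the 26 with a mean of 1 to 5 FPKM, 20 were higher and 6 lower, and all 7 with a mean of 5 FPKM or more were higher. Hist1h3a (4.27 FPKM) and Hist1h4b (3.27 FPKM) were under 5 FPKM in the Nrn1+/- library, so a cut on the mean favours higher genes. No share of all genes is given for these ranges. In all, 33 members reached a mean of 1 FPKM, 10 of them only through the Nrn1-/- library and 0 only through the Nrn1+/- library. A count over those 33 therefore favours higher genes: 27 were higher, beside 54.3% of the 10695 protein-coding genes that reached it, and 19 at least 1.5-fold higher, beside 7.01%. Of the 23 members at 1 FPKM or more in the Nrn1+/- library itself, 17 were higher, beside 53.4% of the 10682 protein-coding genes at that level, with a median log2 ratio of 0.67.

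The H2a genes, which encode the core histone H2A, had the largest summed difference of the 5 classes as reported, from 26.7 to 77.1 FPKM (2.89-fold). Of the 14 above 0, 12 were higher and 2 lower. One gene carried most of that difference. Hist1h2ap (chr13:21833026-21833507, minus strand) stood at 13.01 and 51.3 FPKM, 3.94-fold higher, and was the highest member in both. Low values in both files step by whole fragments, which gave 181 and 570 fragments for this gene and a 95% interval of the fold from 3.33 to 4.68. All such intervals here are exact and cover counting error only, because copies made by PCR cannot be told from separate molecules. Hist1h2ap held 32.4% of the members' summed difference, and without it the other 67 genes summed to 79.5 and 159 FPKM, 2.003-fold higher. Without it the log2 ratio of the H2a sum was 0.87, below those of H3 (1.17) and H2b (1.09), which kept their own highest genes. The place of H2a as the class with the largest difference thus rests on Hist1h2ap. Only 6.93% of the 50-base stretches of its transcript were found in no other annotated transcript, so fragments of near-identical copies may be split or pooled in its value, and the sources used here do not say how the authors assigned such fragments.

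Hist1h2ag (chr13:22042460-22042944, minus strand), another H2A gene, stood at 1.92 and 7.95 FPKM, 4.14-fold higher with a counting interval of 2.66 to 6.61. Hist1h2ae was at 3.21 and 6.76 FPKM and Hist1h2ak at 1.51 and 3.57 FPKM. These genes showed the same direction as Hist1h2ap at lower levels. Hist3h2a (chr11:58954685-58978050, plus strand) differed from them, at 4.02 and 2.13 FPKM, 1.89-fold lower in Nrn1-/- cells. Its deposited span covers more than 1 gene, so it has no fragment number. Hist1h2ac, at 0.588 and 0.369 FPKM, was the other lower H2a gene and rested on 8 and 4 fragments.

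The H2b genes, which encode H2A's partner in the nucleosome core, summed to 20.2 and 44.1 FPKM (2.19-fold), with 11 of 14 above 0 higher and 3 lower. Hist1h2bj (chr13:22043214-22043676, plus strand), the highest of them, stood at 7.59 FPKM on 98 fragments and 21.6 FPKM on 224 fragments, 2.85-fold higher with a counting interval of 2.24 to 3.65. Hist1h2bk (chr13:22035870-22036345, plus strand) was at 1.10 and 4.24 FPKM, 3.85-fold higher with an interval of 2.10 to 7.39. The 3 lower genes were Hist2h2be, Hist3h2ba and Hist1h2bc. Hist2h2be (chr3:96221119-96223738, plus strand), whose transcript shares no 50-base stretch with another, went from 1.66 to 1.09 FPKM on 209 and 105 fragments, 1.52-fold lower with an interval of 1.20 to 1.94. Hist3h2ba (chr11:58948920-58949533, plus strand) was at 3.26 and 2.39 FPKM, 1.37-fold lower with an interval of 0.911 to 2.09, so counting error alone spans both directions. Hist1h2bc differed little, at 1.54 and 1.51 FPKM.

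H3 genes encode the core histone whose tail carries many of the studied histone marks. All 12 were above 0, 10 of them higher and 2 lower, with sums of 14.4 and 33.7 FPKM (2.33-fold). Hist1h3c (chr13:23745013-23745501, minus strand) stood at 5.88 and 14.5 FPKM, 2.47-fold higher with a counting interval of 1.88 to 3.24. Hist1h3a (chr13:23761853-23762386, minus strand) stood at 4.27 and 7.603 FPKM, 1.78-fold higher with an interval of 1.30 to 2.44. Hist1h3g (chr13:23535434-23535860, plus strand) had the largest log2 ratio of the class, 1.54, from 0.544 FPKM on 6 fragments to 3.48 FPKM on 31, and its interval of 2.62 to 18.7 is correspondingly wide. The 2 lower members were near 0: Hist1h3b at 0.189 and 0.121 FPKM, and Hist2h3c1 at 0.00127 and 6.39e-05 FPKM. Both values of Hist2h3c1 are under that of 1 fragment on 1 kb (0.01905 and 0.0251 FPKM), and 0% of its 50-base stretches are unique. It is counted as above 0 and as lower only as listed.

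H4 genes encode the partner of H3. They summed to 26.2 and 47.7 FPKM (1.82-fold), and 11 of 13 were higher. Hist1h4i (chr13:22040636-22041362, minus strand) stood at 7.58 FPKM on 203 fragments and 13.3 FPKM on 278, 1.76-fold higher with a counting interval of 1.46 to 2.12. Hist1h4d (chr13:23581598-23581990, plus strand) was at 5.50 and 10.8 FPKM, 1.97-fold higher with an interval of 1.37 to 2.84. Hist1h4b (chr13:23756203-23757620, plus strand) stood at 3.27 and 9.07 FPKM, 2.77-fold higher, and has no fragment number. Against these, Hist1h4c (2.77 and 3.40 FPKM) and Hist1h4f (1.20 and 1.34 FPKM) lay close to equal. The 2 lower genes, Hist1h4k (1.33 and 1.12 FPKM, on 7 and 5 fragments) and Hist2h4 (0.323 and 0.246 FPKM, on 24 and 14), rested on few fragments.

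H1 linker histone genes were the lowest class. They summed to 5.00 and 7.90 FPKM (1.58-fold), with 4 of the 5 above 0 higher. Hist1h1c (chr13:23738808-23740367, plus strand), the highest of them, was level at 2.54 and 2.51 FPKM on 179 and 136 fragments, and its counting interval of 0.787 to 1.25 includes equality. Hist1h1b (0.616 and 1.67 FPKM) and Hist1h1e (0.825 and 1.70 FPKM) were higher in the Nrn1-/- library. Hist1h1t, a linker histone known from testis, was listed at 0 in both.

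**Figure D2:**
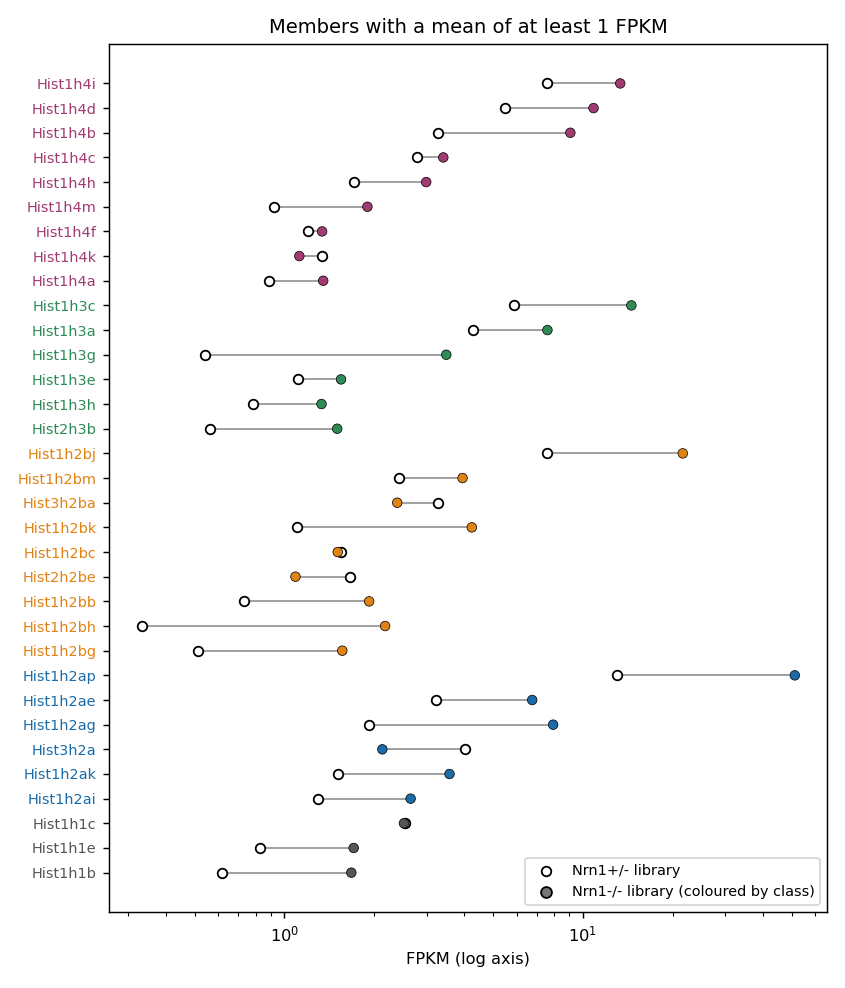
FPKM (log axis) of the 33 clustered histone genes whose mean reached 1 FPKM, with open circles for the Nrn1+/- library, filled circles for the Nrn1-/- library and gene names coloured by class. Of these genes 27 have the filled circle to the right, and Hist3h2a, Hist2h2be and Hist3h2ba are among the 6 that have it to the left.

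The classes also differed in their weight within the set. H2a genes held 28.8% and 36.6% of the members' summed FPKM, but 17.2% and 16.2% without Hist1h2ap, which turns the direction. H4 genes held 28.3% and 22.7%, and 33.0% and 29.9% without Hist1h2ap. The shares were 21.8% and 20.97% for H2b, 15.6% and 15.99% for H3 and 5.40% and 3.75% for H1. The ratio of summed H2a to summed H2b was 1.32 and 1.75, and without Hist1h2ap it was 0.68 and 0.59, so its direction rests on that gene as well. These shares do not depend on how the libraries are scaled to each other, but they are shares of what poly(A) capture retained.

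The clusters differed from one another. Hist1, the large cluster on chromosome 13, held 55 of the genes, of which 47 were above 0, 42 of them higher and 5 lower, and it summed to 82.2 and 202 FPKM (2.45-fold). Hist2 on chromosome 3 had 5 of 8 genes above 0 higher and summed to 2.90 and 4.25 FPKM (1.46-fold). Both Hist3 genes on chromosome 11, Hist3h2a and Hist3h2ba, were lower, with sums of 7.28 and 4.51 FPKM (1.61-fold lower). The single Hist4 gene, Hist4h4 on chromosome 6, was near 0 at 0.0863 and 0.0942 FPKM. Within Hist1, the genes fall into blocks along the chromosome. The block at chr13:21715763-21837530, with 18 genes, summed to 23.6 and 72.7 FPKM (3.08-fold). The block at chr13:22035164-22043676 held 5 genes, all higher, with 18.3 and 47.5 FPKM (2.60-fold), and the block at chr13:23531050-23934851 held 31 genes, with 40.3 and 81.5 FPKM (2.02-fold). The remaining gene, Hist1h2al, lies apart from these and was listed at 0 in both libraries. Hist1h2ap is in the first of these blocks, which without it summed to 10.6 and 21.4 FPKM (2.02-fold), below the block of 5 genes.

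Because the libraries were poly(A)-selected, members were compared by their annotated 3′ end in 3 ways, the last 2 chosen after values were seen. In GENCODE M21, 22 members with a stem-loop are annotated to within 100 bases of it, and of the 20 above 0 in this group 19 were higher and 1 lower, with a median log2 ratio of 0.65. Their sums were 45.9 and 133 FPKM (2.90-fold). Another 22 members are annotated more than 100 bases past the stem-loop, and of the 21 above 0, 15 were higher and 6 lower, with a median of 0.27 and sums of 34.7 and 54.0 FPKM (1.56-fold). The 23 members with no stem-loop letters in their annotated transcript had 14 higher and 3 lower, with a median of 0.36. For 15 members the annotated transcript ends within 10 bases of the stop codon, so for them the absence of letters reflects the annotation.

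The second comparison asked for the poly(A) signal letters AATAAA or ATTAAA on the sense strand after the stem-loop, or after the stop codon where no stem-loop was found. Of the 22 members with these letters, 19 were above 0, 11 of them higher and 8 lower, with a median log2 ratio of 0.23 and sums of 34.9 and 51.3 FPKM (1.47-fold). Of the 46 without them, 39 were above 0, 37 higher and 2 lower, with a median of 0.59 and sums of 57.6 and 159 FPKM (2.77-fold). The search ended where the annotated transcript ends. Of these 46, 20 are annotated to within 100 bases of the stem-loop and 18 show no stem-loop letters. Absence of the letters thus often reflects a short annotation, and this comparison largely overlaps the first. Of the 10 lower members, 8 thus carry the letters, among them Hist2h3c1, whose values are under that of 1 fragment. The other 2 are Hist1h3b and Hist1h4k. In Hist3h2a the letters follow the printed stem-loop after 1468 bases, in Hist1h1c after 443 and in Hist3h2ba after 142. The division is not clean, since Hist1h4i and Hist1h4d carry the letters after 116 and 444 bases and were higher. So was Hist1h2bh, which carries them and went from 0.333 to 2.17 FPKM on 3 and 16 fragments, a ratio of 6.53 with a counting interval of 1.86 to 34.8. By the third measure, 12 members have a deposited span that runs more than 100 bases past the stem-loop (8 higher and 3 lower of 11 above 0, median 0.27) and 28 do not (25 higher and 2 lower of 27, median 0.59). Whether any of these RNAs carried a tail was not measured.

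**Figure D3:**
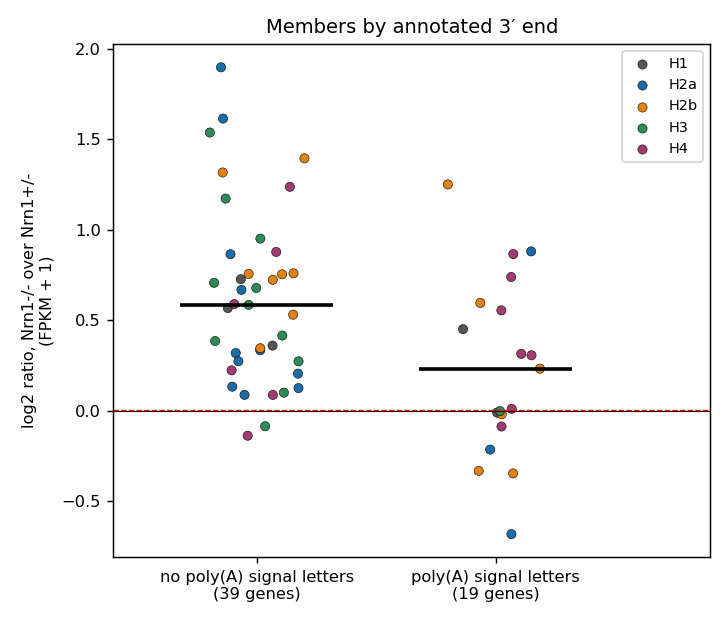
Log2 ratio of Nrn1-/- over Nrn1+/- (after adding 1 FPKM) for members above 0 FPKM, split by whether the annotated transcript holds poly(A) signal letters, with 1 point per gene coloured by class, bars at the median, the black line at 0 and the red dashed line at the median of all protein-coding genes above 0. Members without the letters have a median of 0.59 and those with them 0.23, and 8 of the 10 points below 0 are on the right.

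Most H2a and H2b genes lie in pairs that start back to back and share the DNA between them. There were 12 such pairs, with 278 to 334 bases between the coding starts. In 8 pairs both genes were above 0, and in 7 of these both differed in the same direction, 6 of them both higher. Since 48 of all 58 members above 0 were higher, most pairs of unlinked members would share a direction too. Several of these directions rest on few fragments, with intervals that include equality. Hist1h2ah and Hist1h2an each had 1 and 3 fragments, and Hist1h2bl had 2 and 4. Hist1h2ad had 0 and 1 and has no interval. In the pair Hist1h2ag and Hist1h2bj both were higher at 4.14-fold and 2.85-fold, and so were Hist1h2ae and Hist1h2bg, at 2.10-fold and 3.05-fold. Hist1h2ac (8 and 4 fragments) and Hist1h2bc (1.54 and 1.51 FPKM, nearly level) were both lower. Hist2h2ac (0.314 and 0.397 FPKM) and Hist2h2be went opposite ways. The log2 ratios of the 2 genes correlated over the 8 pairs (Pearson's r 0.65, Spearman's rho 0.69), as a description only, since pairs share libraries and similar sequence. Partners could differ widely in listed value: Hist1h2br, the partner of Hist1h2ap, was listed at 0 in both libraries. Only 11.3% of the 50-base stretches of Hist1h2br and 6.93% of those of Hist1h2ap are unique. Neither value can therefore be read as the level of that gene alone.

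**Figure D4:**
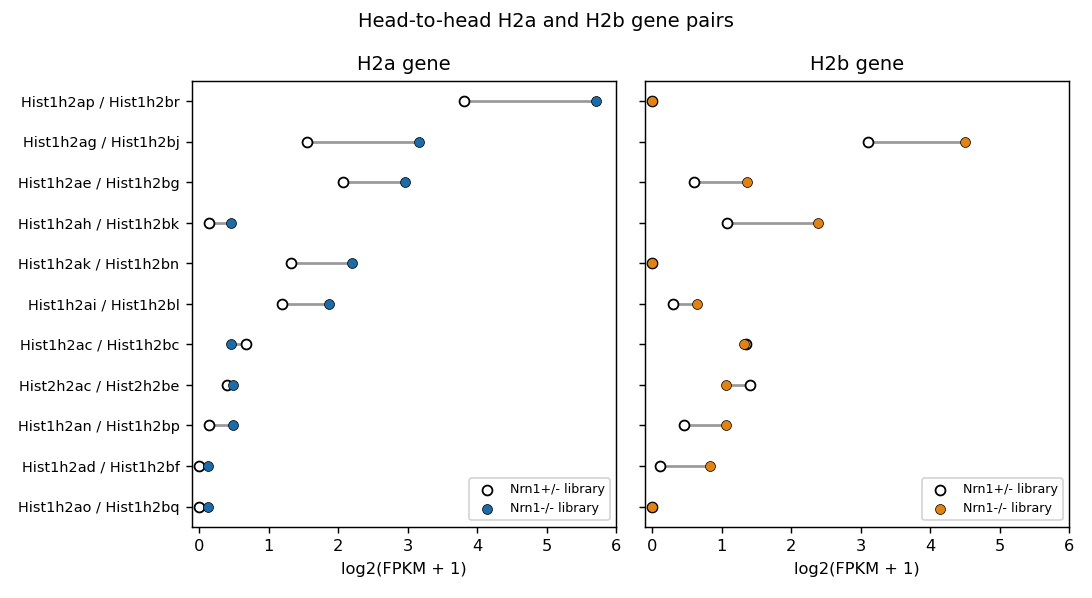
Level, as log2(FPKM + 1), of the H2a gene (left) and the H2b gene (right) of each back-to-back pair with a gene above 0 FPKM, with open circles for the Nrn1+/- library and filled circles for the Nrn1-/- library. Both genes of Hist1h2ag and Hist1h2bj are higher in the Nrn1-/- library, whereas the partners of Hist1h2ap, Hist1h2ak and Hist1h2ao are listed at 0.

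The stretches upstream of the genes show what these promoters share. Printed below, from 5′ to 3′ on the gene's own strand, are 150 bases before the start of 5 members (RefSeq, GRCm38.p6). They were chosen after values were seen: 3 of the highest genes and 2 of those with an equal or lower level. Capitals mark the letters CCAAT, the TATA box letters TATAAA, the H4 promoter letters GGTCC and the octamer ATTTGCAT. Each was marked on either strand and at any distance from the start, and other TATA-like letters were left unmarked.
Hist1h2ap: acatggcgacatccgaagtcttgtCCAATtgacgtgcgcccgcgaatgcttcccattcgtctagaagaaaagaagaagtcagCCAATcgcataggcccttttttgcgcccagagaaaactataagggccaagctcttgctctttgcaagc
Hist1h2bj: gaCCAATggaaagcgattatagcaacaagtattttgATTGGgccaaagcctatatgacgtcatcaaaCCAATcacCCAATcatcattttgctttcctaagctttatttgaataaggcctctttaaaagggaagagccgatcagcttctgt
Hist1h4i: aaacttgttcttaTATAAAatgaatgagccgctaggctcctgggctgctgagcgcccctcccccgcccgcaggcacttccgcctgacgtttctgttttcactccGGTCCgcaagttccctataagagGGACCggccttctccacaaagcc
Hist3h2a: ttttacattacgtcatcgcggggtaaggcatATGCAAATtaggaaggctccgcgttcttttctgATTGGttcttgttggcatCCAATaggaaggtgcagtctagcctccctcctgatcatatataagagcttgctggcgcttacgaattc
Hist1h1c: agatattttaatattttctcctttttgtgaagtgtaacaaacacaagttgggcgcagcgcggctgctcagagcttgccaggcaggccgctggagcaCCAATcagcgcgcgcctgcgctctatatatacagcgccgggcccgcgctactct
They lie at chr13:21833508-21833657 (minus), chr13:22043048-22043197 (plus), chr13:22041363-22041512 (minus), chr11:58954535-58954684 (plus) and chr13:23738657-23738806 (plus). Over the 250 bases before the start, 62 members matched a RefSeq promoter. CCAAT was present in 51 of them (82.3%), against 34.5% of 27025 promoters in all, including every one of the 6 H1, 18 H2a and 16 H2b promoters and 3 of 12 H4 promoters. The octamer was found in 13 (20.97%, against 1.61% of all promoters), 7 H2a and 6 H2b, and in none of the H1, H3 or H4 promoters. GGTCC was found in 11 of 12 H4 promoters, against 39.7% of all promoters, and TATAAA in 29 of the 62 (46.8%, against 12.97%). The windows of back-to-back pairs overlap, so their promoters are not separate cases. Members above 0 with CCAAT had a median log2 ratio of 0.49 and those without 0.31. These medians were 0.53 and 0.43 for the octamer, 0.51 and 0.35 for TATAAA and 0.46 and 0.45 for GGTCC, and the differences were not tested. A match describes the letters anywhere in the window, so a TATAAA far from the start, as in Hist1h4i, is counted and need not be a TATA box. It shows no bound factor.

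Genes that act on histone RNA and protein were mostly higher as well. S phase genes, which copy DNA while histones are made, were higher for 20 of 20, where 52.3% of all 12344 genes with a mean of 1 FPKM or more were higher and 47.7% lower. Of the 20, 19 were at least 1.5-fold higher, beside 7.5% of all genes. Their median log2 ratio was 0.90. Ccna2, the cyclin of S phase progression, stood at 26.2 and 70.8 FPKM, Rrm2, a subunit of ribonucleotide reductase, at 65.2 and 167 FPKM, and Cdc6, which loads the replicative helicase, at 10.8 and 26.9 FPKM. The S phase genes summed to 1.84-fold higher in the Nrn1-/- library, the clustered histone genes to 2.28-fold. The histone sum was 2.003-fold higher without Hist1h2ap and 1.67-fold among members with at least 50% unique 50-base stretches. By median log2 ratio the order was the reverse, 0.90 for S phase genes and 0.43 for the 58 members above 0. That reversal rests on the added 1 FPKM, since after adding 0.1 FPKM the medians were 0.91 and 0.96. Of 22 histone chaperone and import genes, 17 were higher and 5 lower, 7 of them at least 1.5-fold higher, with a median of 0.40. Asf1b and Chaf1a, which hand new H3 and H4 to replicating DNA, led them at 26.3 and 64.6 FPKM and at 14.1 and 31.8 FPKM, followed by Nasp, a carrier of soluble histones, at 77.9 and 129.8 FPKM.

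The 16 measured genes of histone 3′ end processing had 15 higher and 1 lower, with a median log2 ratio of 0.42 and 2 of them at least 1.5-fold higher. Slbp, the stem-loop binding protein, stood at 58.6 and 82.6 FPKM. The largest ratios were those of 3 Sm ring proteins, Snrpd3 (46.1 and 77.2 FPKM), Snrpf (81.4 and 126 FPKM) and Snrpg (173 and 257 FPKM). Of 9 genes of histone transcription, 8 were higher and 1 lower, 3 of them at least 1.5-fold higher. Npat, the coactivator that gathers at histone loci, was at 7.93 and 9.70 FPKM, while its upstream cyclins Ccne1 (15.1 and 34.4 FPKM) and Ccne2 (7.83 and 14.4 FPKM) were higher by more. Pou2f1, which encodes the octamer-binding factor Oct-1, was the lower gene, at 26.8 and 16.5 FPKM. Of 16 genes of histone mRNA decay, 11 were higher and 5 lower, with a median of 0.24. Lsm7, a subunit of the Lsm ring, stood at 95.5 and 149 FPKM, the uridyl transferase gene Zcchc11 at 34.8 and 19.4 FPKM and the decapping cofactor gene Pnrc2 at 47.1 and 31.5 FPKM. Of 13 genes of the general poly(A) machinery, 11 were higher and 2 lower, with a median of 0.21. Pabpc4, a poly(A) binding protein gene, stood at 61.5 and 109 FPKM, Cstf1, of the cleavage stimulation factor, at 25.2 and 39.9 FPKM, and the poly(A) polymerase gene Papolg at 18.2 and 12.6 FPKM. With both libraries brought to a sum of 1000000 over all rows, the median log2 ratio of all genes went from 0.019 to -0.25. The counts with that scaling are therefore not to be set against the 52.3% given for unscaled values. With it 11 of the 16 processing genes were higher, with a median of 0.088. So were 4 of the 9 transcription genes, 7 of the 16 decay genes and 5 of the 13 poly(A) machinery genes, and the ratio of Npat turned to -0.0017. With that scaling 14 chaperone and import genes were higher, with a median of 0.12, and all 20 S phase genes.

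Histone genes outside the clusters, which make tailed messenger RNA throughout the cell cycle or encode variants, differed less. Of the 9 measured, 8 were higher with a median log2 ratio of 0.20. This turned to -0.096 with 3 higher with both libraries at a sum of 1000000 over all rows, where the median of all genes was -0.25. H2afz, the gene of variant H2A.Z, stood at 1132 and 1326 FPKM, H3f3a at 260.1 and 298 FPKM and H3f3b at 575 and 626 FPKM, both of which encode the variant H3.3, and with that scaling their log2 ratios turned to -0.064, -0.096 and -0.17. Per length, the 68 clustered genes together reached 8.17% and 15.9% of the H2afz level. The 2 genes of this list at least 1.5-fold higher were Cenpa, the histone of centromeres (52.9 and 113 FPKM), and H2afx, whose protein marks DNA breaks when phosphorylated (39.3 and 72.9 FPKM). H1f0, a linker histone of resting and differentiated cells, was at 28.3 and 35.6 FPKM.

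**Figure D5:**
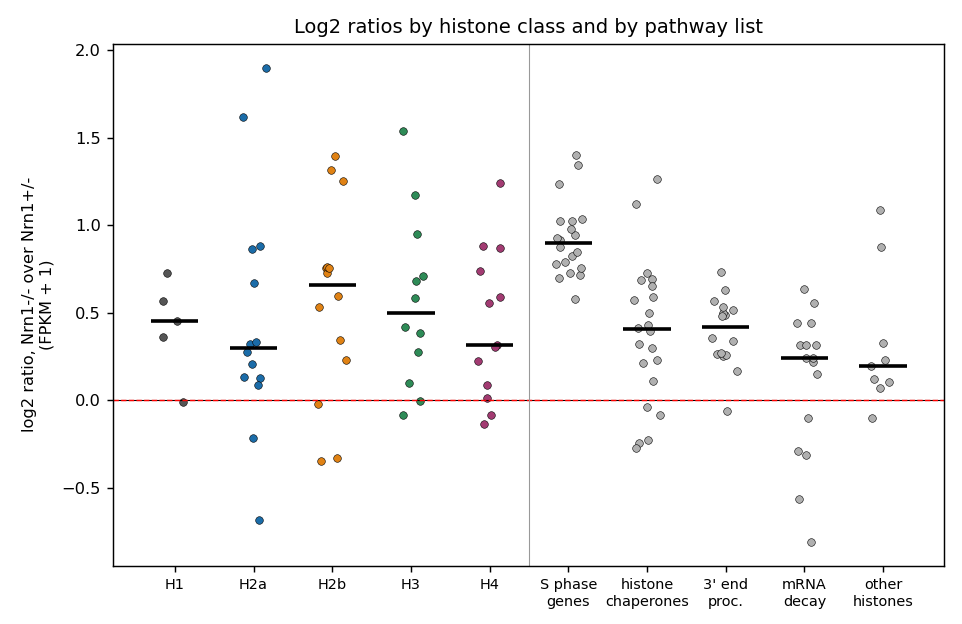
Log2 ratio of Nrn1-/- over Nrn1+/- (after adding 1 FPKM) for each clustered histone gene above 0 FPKM by class (left of the grey line) and for genes of 5 pathway lists whose mean reached 1 FPKM (right), with bars at the median, the black line at 0 and the red dashed line at the median of all protein-coding genes above 0. The class medians run from 0.30 (H2a) to 0.66 (H2b), and the list medians from 0.20 (other histones) to 0.90 (S phase genes).

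Several members rest on sequence they share. Of the 10 genes listed at 0 in both libraries, 7 had under 50% of their 50-base stretches unique among annotated transcripts, with a median of 12.4%, while the 58 above 0 had a median of 50.4%. A 0 at such a gene is read here only as listed at 0. The 10 were Hist1h1t, Hist1h2aa, Hist1h2af, Hist1h2al, Hist1h2ba, Hist1h2bn, Hist1h2bq, Hist1h2br, Hist2h2aa1 and Hist2h2aa2. Of the members above 0 with at least 50% unique stretches, 23 were higher and 7 lower, with a median log2 ratio of 0.43 and a summed fold of 1.67. Of those under 50%, 25 were higher and 3 lower, with a median of 0.49 and a summed fold of 3.17. The direction was thus shared by both groups, while the summed fold was larger among members that resemble each other. Values of single genes in that group are uncertain, and counting intervals do not cover this. Besides Hist1h2ap it holds Hist1h2ag (21.1% unique), Hist1h4b (24.1%), Hist1h2bk (25.8%), Hist1h2bj (40.6%) and Hist1h3g (45.9%).

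Across the series, Nrn1 itself was at 66.5 and 4.62 FPKM, in the direction of the genotype labels. The 5 regulatory T cell markers were all present and all lower in the Nrn1-/- library, summing to 2029 and 1706 FPKM, and 5 T cell markers summed to 1558 and 1376 FPKM. Markers of other cells were low: B cell genes summed to 9.43 and 10.4 FPKM with 6 of 7 higher (Pax5 at 0.0434 and 0.280 FPKM), CD8 T cell genes to 4.92 and 3.93 FPKM and NK cell genes to 4.98 and 4.77 FPKM. Myeloid genes summed to 0.850 and 0.708 FPKM, with S100a8 and S100a9 at 0, and erythroid genes to 0.636 and 0.217 FPKM. The part of the B cell markers and of the S phase genes in the histone difference was not tested.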

How the data were processed

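The deposited values are FPKM per gene, made by the authors. The unit is not in the file headers and was taken from the values and the tool Cuffnorm, named in the submitters' processing notes beside TopHat, Cuffdiff and FastQC, with no versions, and the builds mm10 and GRCm38. Per the labels' protocols, poly(A)+ RNA was taken on oligo d(T) beads and the libraries were randomly primed. The sources used here do not give the annotation, the handling of fragments that match several genes or any scaling between libraries.

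Ratios were log2((Nrn1-/- + 1)/(Nrn1+/- + 1)), and the 1.5-fold and 2-fold limits apply to that scale, while folds quoted beside FPKM carry no pseudocount. Rows sharing a symbol were summed for genes other than members. Members and lists were chosen with earlier results of these data known. By rule, the members named were those whose mean reached 5 FPKM, the 3 largest ratios each way at 1 to 5 FPKM, 3 genes per pathway list, Slbp, Npat, H2afz, H2afx, H3f3a, H3f3b and Nrn1. Other members named were picked after their values were seen, as were the blocks, pairs and motifs.

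With whole fragments as the unit, 1 fragment on 1 kb of effective length was worth 0.01905 FPKM (Nrn1+/-) and 0.0251 FPKM (Nrn1-/-). This put 99.6% of 684 and 99.5% of 620 low genes within 0.1 of a whole number, where chance gives 20%, and put the depth ratio at 1.32 (Nrn1+/- over Nrn1-/-), provided that each was scaled to its own total. It gave fragment numbers for 49 members, with medians of 12 and 18. Tested on simulated data, 100% of 800 values were recovered. Intervals are 95% Clopper-Pearson. Stem-loops, poly(A) letters and unique 50-base stretches came from GENCODE M21 on GRCm38, in which 46000 rows matched by identifier and 99.95% of them overlapped on the same chromosome, and promoters from RefSeq GRCm38.p6. Python 3.11.15 with numpy 2.4.6, pandas 2.3.3, scipy 1.17.1 and matplotlib 3.10.9 was used. With 1 library per genotype no test was made. Other pseudocounts, filters and scalings were tried.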

Additional observations from a re-analysis of the deposited data

Results flagged for a closer look

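A row of non-coding type named Hist2h2bb, which the comparisons did not use, had 0.0983 FPKM in Nrn1-/- and 0.0147 FPKM in Nrn1+/- cells. It drew attention as a signal outside the protein-coding rows that was above the control library. The 2 other non-coding rows with a clustered histone symbol were Hist3h2bb-ps, with 0.0768 FPKM in Nrn1+/- and 0 in Nrn1-/- cells, and Hist1h2aj, at 0 in both.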

How the results depend on the processing

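Pseudocounts, filters and scalings were changed 1 at a time, and a sum without Hist1h2ap was added after the data were seen. Of 456 summary values, 413 stayed within their limits (1.5 times for counts, an order-statistic interval for medians, 0.29 on the log2 scale for sums), and 43 moved. Of 289 values of single genes and of all genes, 275 stayed and 14 moved. Signs changed for 7 and 10 of these, none at 1.5-fold or more as reported, 5 and 5 of them with the sum over all rows. The cause was not tested for any that moved. Of members above 0, 46 to 48 were higher under every scaling and pseudocount. With a pseudocount of 0.1 FPKM, members at a mean of at least 1 FPKM had 14 at 2-fold and a median of 0.96 (H1 0.96), and members above 0 had 41 at 1.5-fold and a median of 0.96 (1.19 without stem-loop letters and 1.19 without poly(A) letters). With 5 FPKM these were 8 at 1.5-fold, 2 at 2-fold and a median of 0.25, then 8 at 1.5-fold and 0.14 (0.11 and 0.19). With no filter 48 were higher (H1 4, H2a 12, H2b 11, H3 10). At a mean of at least 5 FPKM, 7 were higher, 7 at 1.5-fold and 4 at 2-fold, with a median of 1.17 (H2a 1 higher, H2b 1 with a median of 1.40, H3 2, H4 3). Without Hist1h2ap the log2 ratio of the H2a sum was 0.87. Scaling shifted the median of all genes from 0.019 to -0.057 (upper quartile), -0.25 (sum of 1000000 over all rows) and -0.10 (over protein-coding rows). With the upper quartile, poly(A) machinery had a median of 0.13. With the sum over all rows, medians were 0.088 for 3′ end processing, 0.61 for S phase genes, -0.0017 for transcription (4 higher), -0.096 for other histones (3 higher) and -0.079 for poly(A) machinery (5 higher), and 7 decay genes were higher (median -0.044). With the sum over protein-coding rows, medians were 0.24 for 3′ end processing, 0.78 for S phase genes and 0.086 for poly(A) machinery, and 5 transcription genes were higher. No paired analysis was possible because each genotype has 1 library. Depth limits single genes, and intervals of members with few fragments are wide. Those of the lower genes Hist3h2ba, Hist1h4k and Hist2h4 include equality. So do those of many higher genes, among them Hist1h2bm (0.887 to 3.00), Hist1h3h (0.619 to 4.84) and Hist1h4a (0.721 to 3.23).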
